A study of Mus musculus with 34 samples.

Results

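Control and Mta123KO libraries, 4 of each, of mouse embryonic stem (ES) cells whose sample labels give the culture as 2i+LIF were compared, 8 of the 34 samples of the series. The members were chosen by their labels alone, as all libraries of these 2 genotypes with that culture label. The study asked what the MTA proteins contribute to the nucleosome remodelling and deacetylation (NuRD) complex and sequenced total RNA from ES cells that lack all of them. In the same experiment, 4 libraries of each genotype were labelled as 48h in N2B27 medium without inhibitors or LIF, and these served here as a second set in which each difference could be looked for.

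Control cells, of strain 129/Ola, carried conditional alleles of Mta genes. The paper gives their genotype once as Mta1 +/Δ Mta3 flox/flox and once as Mta1 flox/- Mta2 +/+ Mta3 flox/flox. Control was established alongside the line from which the mutant came and is not that line, so genotype and line of origin cannot be told apart. Mta123KO cells, labelled with the same strain, were Mta1 Δ/Δ Mta2 Δ/- Mta3 Δ/Δ, in which Cre had removed the conditional exons and a puromycin cassette replaced 1 Mta2 allele. Both genotypes were grown on gelatin without feeder cells. The medium named in the label, 2i+LIF, combines LIF, a cytokine, with blockers of the kinases Mek and Gsk3 and keeps mouse ES cells self-renewing. The sample titles number the libraries of each genotype 1_1, 1_2, 2_1 and 2_2. The first part was read as the line, so each genotype had 2 lines with 2 libraries each, and lists of 4 values below run line 1, line 1, line 2, line 2. The paper calls the points of its RNA-seq plots biological replicates. Whether the 2 libraries of a line came from separate cultures is not given in the sources used here, so p-values measure the spread among these libraries.

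The names of the deposited files contradict the culture labels. The files of the 8 libraries labelled 2i+LIF are named for 48 h of differentiation and those of the 8 libraries labelled 48h are named for 2i+LIF, so that all 16 disagree. The groups are therefore called by their labels throughout, and no statement here rests on which of the names is right.

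NuRD joins a chromatin remodelling enzyme, usually Chd4, to the histone deacetylases Hdac1 and Hdac2. The MTA proteins are the scaffold of the deacetylase subcomplex, and Mbd2 or Mbd3 with Gatad2a or Gatad2b link it to the remodeller. In ES cells the complex is known for tuning the transcription of genes that are also bound by activators and for its requirement when cells leave self-renewal. ES cells themselves pass from a naive state, marked by factors such as Klf4, Esrrb and Tfcp2l1, through a formative state, marked by Pou3f1, Dnmt3b and Fgf5, before they form the germ layers, whereas trophoblast arises from a separate lineage of the blastocyst.

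Marker genes also went against the culture labels. Values in this paragraph are CPM, the counts of a gene scaled by the size of its library after TMM normalization, over all 16 libraries. In Control, the naive factor Nanog was counted at 48.4 to 83.9 CPM in the libraries labelled 2i+LIF and at 861 to 1016 CPM in those labelled 48h, a log2 difference of -3.80. Tfcp2l1, another naive factor, was counted at 29.4 to 42.2 against 1622 to 1927 CPM, and Klf4 at 2.94 to 7.88 against 116 to 147 CPM. In the opposite direction, the formative factor Pou3f1 was counted at 58.9 to 90.9 CPM under the label 2i+LIF and 1.07 to 2.00 CPM under 48h, and the neural factor Sox1 at 40.8 to 57.6 against 0.83 to 2.68 CPM. Of all genes tested in Control, 13.2% were higher and 10.4% lower under the label 2i+LIF (adjusted p under 0.05 and more than 1 on the log2 scale). Of the 16 naive pluripotency genes listed 15 were lower and 1 higher there, and of 18 formative and primed genes 14 were higher and 1 lower. The ES cell factor Pou5f1 was present under both labels, at 441 to 496 and 507 to 532 CPM.

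**Figure D1:**
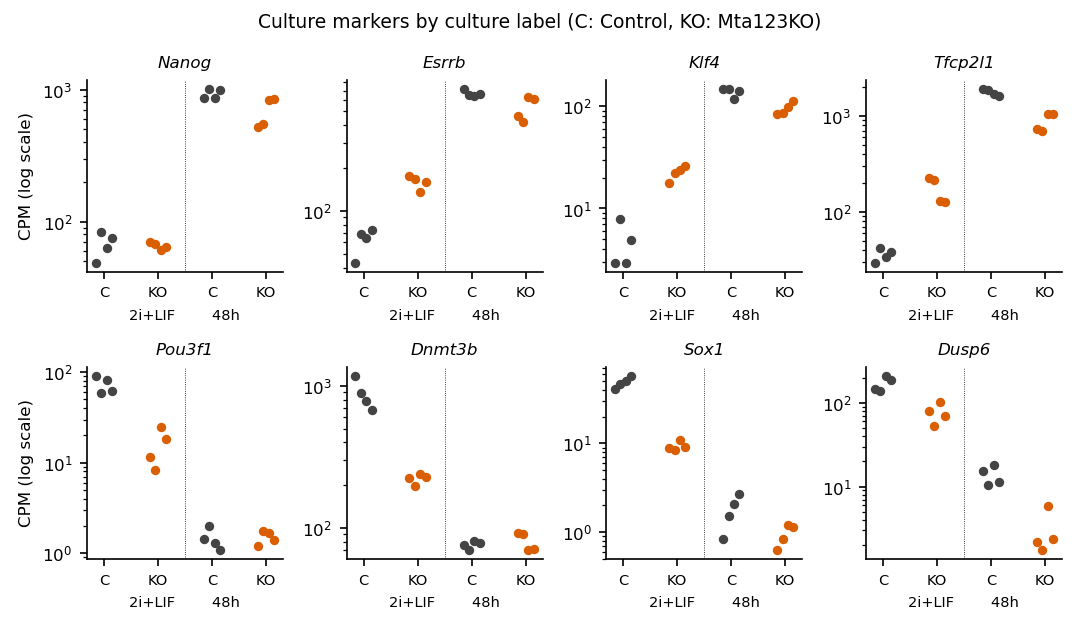
CPM (log scale) of 8 culture markers in each of the 16 libraries, ordered by culture label and genotype, 1 point per library. The naive markers Nanog, Esrrb, Klf4 and Tfcp2l1 were lower, and Pou3f1, Dnmt3b, Sox1 and Dusp6 higher, in the Control libraries labelled 2i+LIF than in those labelled 48h.

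Counts summed to 44634515 to 50880254 per Control library and 40819833 to 47496897 per Mta123KO library. Values well below 1 CPM rest on few counts even at this depth. Mitochondrial rRNA took 8.90% to 9.50% of the counts in Control and 9.24% to 12.6% in Mta123KO, and spike-in RNAs 0.791% to 0.821% and 0.733% to 0.9996%. The 2 Mta123KO lines stood apart from each other. The biological coefficient of variation, the spread beyond counting noise, was 0.257 over the 4 Mta123KO libraries and 0.0686 within their lines, against 0.124 and 0.0772 in Control. For that reason many results are given for both lines. Where no value or count for the lines stands beside a call, the call is that of the 8 libraries together. Described genes whose calls were lost when the libraries of a line were summed to 1 sample are named. Markers of other cells were low or did not move as a group. Of 8 macrophage and microglia genes only Cd68 and Csf1r passed the filter. The sum of these 2 was 20.6 to 22.4 CPM in Control and 22.5 to 23.4 CPM in Mta123KO, and the defining genes Ptprc and Adgre1 were at or below 0.124 CPM. Of 22 mesenchyme and fibroblast genes 15 were tested, of which 7 rose and 5 fell (6 and 3 in both lines), and their sum was 359 to 407 CPM in Control and 277 to 349 CPM in Mta123KO. Without Mta123KO replicate 1_2, 3 rather than 5 of them fell. The part of these cell markers, of the mitochondrial share and of the spike-in share in the results was not tested.

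The targeted genes were measured first. Libraries of Control held 128, 111, 127 and 125 CPM of Mta2 and those of Mta123KO 9.12, 8.11, 5.19 and 4.77 CPM (gene ENSMUSG00000071646, chromosome 19, 8941875 to 8952303, GRCm38). Every Mta123KO library was below every Control library (by edgeR, log2 fold change -4.17, standard error 0.21, adjusted p = 2.73e-06). For Mta3 (gene ENSMUSG00000055817, chromosome 17, 83706163 to 83821516) the values were 74.6, 69.7, 57.4 and 58.6 CPM against 22.3, 24.1, 14.2 and 16.2 CPM, again without overlap (log2 fold change -1.76, standard error 0.18, adjusted p = 6.77e-05). For Mta1 (gene ENSMUSG00000021144, chromosome 12, 113098278 to 113137206) they were 34.7, 37.96, 46.7 and 48.7 CPM against 29.4, 30.3, 19.7 and 20.1 CPM. Its groups did not overlap either, but its change (log2 fold change -0.76, standard error 0.18, adjusted p = 0.0061) was smaller than the threshold of 1. Reads from exons outside a deletion are counted, so these values check the labels and do not measure protein. The log2 fold change of Mta1 was -0.49 in line 1 and -1.08 in line 2, each against the 4 Control libraries.

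**Figure D2:**
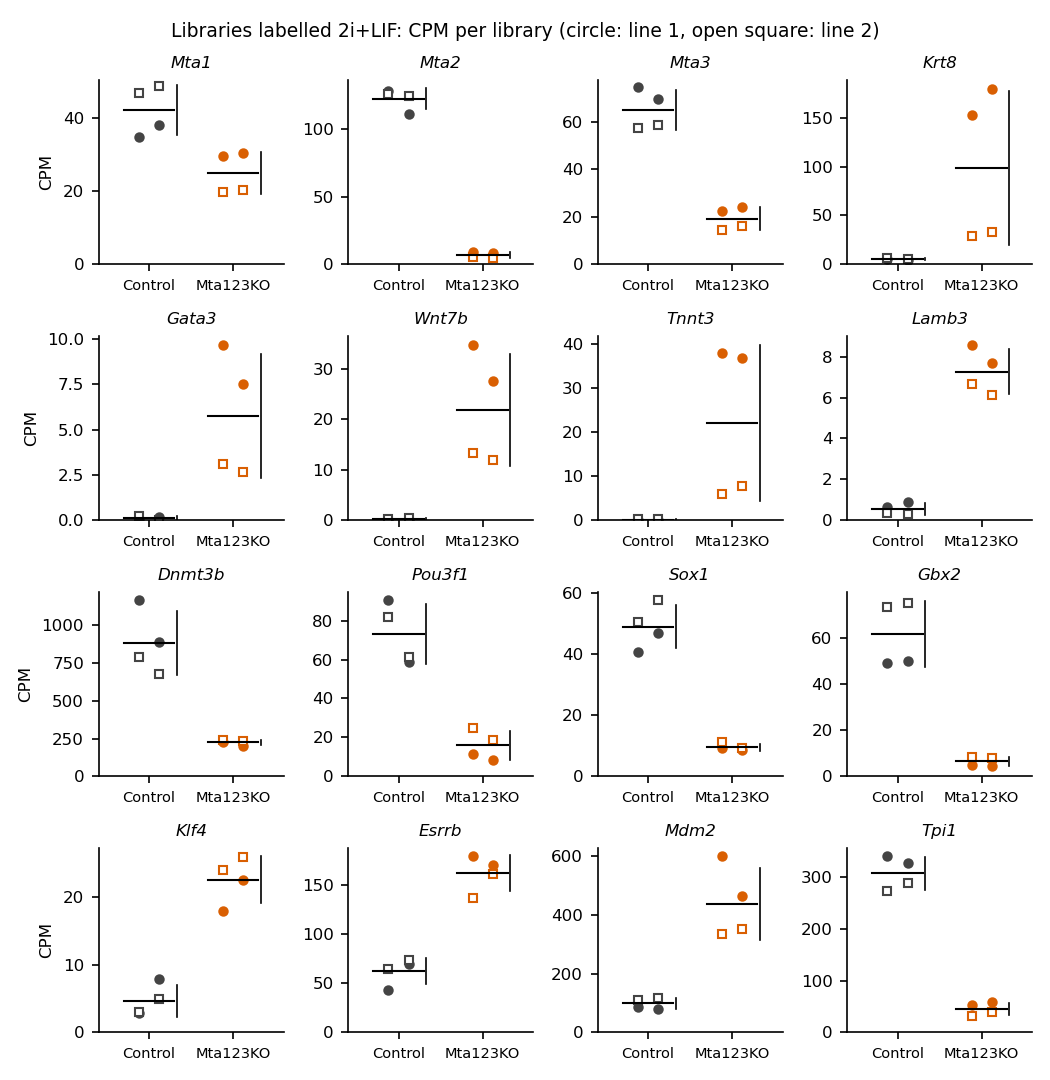
CPM of 16 genes in each library labelled 2i+LIF (filled circle, line 1; open square, line 2), with the mean of the 4 libraries as a horizontal line and ± 1 SD as a vertical one. The genotypes did not overlap for any gene shown, and for Krt8, Gata3, Wnt7b and Tnnt3 both libraries of Mta123KO line 1 were above both of line 2.

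Loss of the MTA genes was accompanied by more genes at higher than at lower levels, and most of them moved in both lines. Of 21651 genes tested, 2861 (13.2%) rose and 1609 (7.43%) fell at an adjusted p under 0.05 and a change of more than 1 on the log2 scale. In 2128 of the increased genes (9.83% of all tested) and 1176 of the decreased ones (5.43%), each line alone was also beyond 1 on the log2 scale against the 4 Control libraries, so that 74.4% of increased and 73.1% of decreased genes met the rule for both lines. The second condition has no test of its own, and the lines share the Control libraries. With the libraries of each line summed, 1584 and 805 of these genes were still called. The Control and Mta123KO libraries of 94.3% of the called genes did not overlap, against 49.7% of all genes tested.

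The genes that rose in both lines had a median log2 fold change of 2.09, and those that fell one of -1.82. Changes beyond 3 on the log2 scale were found in 533 and 119 genes. Line 1 had the larger fold in 1492 of the 2128 and in 734 of the 1176 genes, and 525 and 166 of them differed between the lines in a direct test (6.36% of all genes were higher and 4.47% lower in line 1). That test compares 2 libraries with 2. Here and below, its p-values can be too small if the libraries of a line are technical repeats. The larger share of the increased genes started from a low level. Their median was 0.621 CPM in Control and 3.56 CPM in Mta123KO, and 57.9% of them had a Control mean under 1 CPM, as had 23.5% of all genes tested. A gene near 0 in Control passed the filter on low counts mainly where it was high in Mta123KO, so these levels are in part set by the filter and by the choice of genes that rose.

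**Figure D3:**
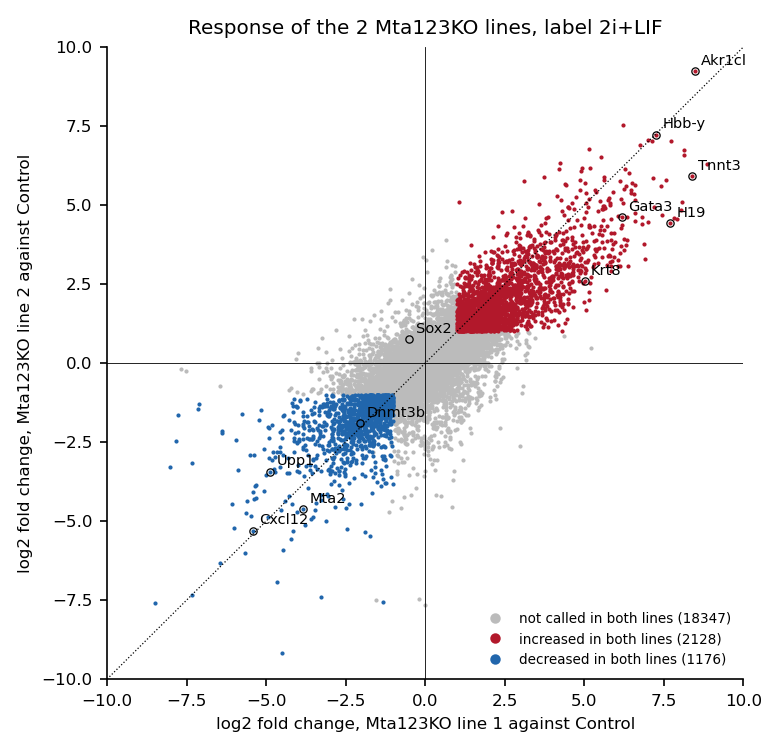
Log2 fold change of each Mta123KO line against the 4 Control libraries labelled 2i+LIF, line 1 on the x axis and line 2 on the y axis, 1 point per gene tested (21651), with the diagonal dotted. The 2128 genes increased and 1176 decreased in both lines are coloured, and Krt8, Tnnt3 and H19 lie below the diagonal, with the larger increase in line 1.

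The 12 largest increases shared by both lines took genes at or below a few CPM in Control to higher levels. Genes were ranked by the smaller of the 2 line changes, among genes with at least 5 CPM in the higher group. Akr1cl, an aldo-keto reductase family gene (ENSMUSG00000025955, chromosome 1, 65012689 to 65032759), came first, at 0.378, 0.811, 0.27 and 0.311 CPM in Control and 162, 155, 251 and 291 CPM in Mta123KO (8.47 in line 1 and 9.24 in line 2 on the log2 scale). Hbb-y, an embryonic beta-globin, was counted at 0.0796, 0.0416, 0.0208 and 0.0222 CPM in Control and 6.26, 7.45, 5.93 and 7.34 CPM in Mta123KO, nearly alike in the 2 lines (log2 fold change 7.25, standard error 0.29, adjusted p = 8.88e-07). Also among the 12 largest were Sfn (14-3-3 sigma, an epithelial cell cycle regulator), at 2.09, 1.48, 2.14 and 2.47 CPM in Control and 127, 115, 92.5 and 79.9 CPM in Mta123KO (log2 fold change 5.66, standard error 0.21, adjusted p = 8.04e-07), and Atp12a, a proton-potassium pump, at 0.378 to 0.756 CPM in Control and 20.7 to 32.1 CPM in Mta123KO. Tex13b, a gene of the testis, was counted at 0.498 to 1.31 CPM in Control and 41.2 to 49.9 CPM in Mta123KO, and the lens crystallins Cryge and Crygc at 0.0831 to 0.278 and 0.119 to 0.291 CPM in Control and 6.97 to 9.28 and 7.14 to 9.63 CPM in Mta123KO. Ptgs2, the inducible enzyme of prostaglandin synthesis, was counted at 0.0889 to 0.208 CPM in Control and 5.68 to 12.999 CPM in Mta123KO. The ranking rule required that the genotypes not overlap for any of these genes.

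The other 4 of the 12 differed more between the lines. Lrrc15, a leucine-rich repeat membrane protein, was counted at 0.0597, 0.25, 0.353 and 0.156 CPM in Control and 54.2, 62.3, 14.8 and 24.7 CPM in Mta123KO. Tnnt3, the troponin T of fast skeletal muscle, was counted at 0, 0.0832, 0.187 and 0.178 CPM in Control and 38.05, 36.8, 5.86 and 7.73 CPM in Mta123KO, and Arsi, a sulfatase, at 0 to 0.0831 CPM in Control and 3.16 to 22.2 CPM in Mta123KO. Both line 1 libraries were above both line 2 libraries for these 3 genes and for Wnt7b, a secreted Wnt ligand described with its family below. Akr1cl, Cryge and Crygc lie close together on the minus strand of chromosome 1 (65012689 to 65032759, 65048554 to 65051149 and 65071525 to 65073689). Whether they changed as 1 locus was not tested. They lie before 91 Mb, a boundary set by hand, where 346 genes had a median log2 difference of -0.47 between line 1 and line 2. Against Control the median of that stretch was -0.02 in line 1 and 0.47 in line 2. Their changes in line 1, the lower one there, were 8.47, 5.61 and 5.33. Col6a3, Cdk5r2 and Gbx2, described below, lie in the same stretch and were also lower in line 1 than in line 2 (log2 difference -1.45, -1.05 and -0.79). Crystallin genes have close copies, and how reads that align to several places were handled is not given in the sources used here, so their counts are uncertain.

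The largest decreases shared by both lines took genes of moderate level to near 0. Cxcl12, the chemokine ligand of Cxcr4, was counted at 18.1, 13.999, 13.3 and 11.5 CPM in Control and 0.28, 0.39, 0.295 and 0.414 CPM in Mta123KO (ENSMUSG00000061353, chromosome 6, 117168535 to 117181367). The lines were alike (-5.41 in line 1 and -5.31 in line 2 on the log2 scale, adjusted p = 8.04e-07). Vrtn, a regulator of vertebral number, was counted at 56.4, 39.1, 47.3 and 44.3 CPM in Control and 0.689, 0.71, 2.04 and 2.16 CPM in Mta123KO (log2 fold change -5.07, standard error 0.37, adjusted p = 1.50e-05). Enpp2, the enzyme that makes lysophosphatidic acid, was counted at 36.2, 19.01, 19.6 and 10.5 CPM in Control and 0.473, 0.39, 0.862 and 1.198 CPM in Mta123KO, with more spread within Control than the other genes here (log2 fold change -4.86, standard error 0.47, adjusted p = 5.88e-05).

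Transcription factors were also among the 12 largest decreases. Wt1, a zinc finger factor of the urogenital system, was counted at 55.5, 45.3, 50.4 and 45.8 CPM in Control and 1.098, 1.21, 3.32 and 2.46 CPM in Mta123KO (log2 fold change -4.61, standard error 0.33, adjusted p = 1.24e-05). Myb, a haematopoietic factor, was counted at 24.6 to 31.8 CPM in Control and 1.08 to 2.98 CPM in Mta123KO, and Sox3, a factor of early neural cells, at 8.36 to 11.9999 CPM in Control and 0.298 to 0.915 CPM in Mta123KO. The list further held Ndnf, a secreted neurotrophic protein (4.65 to 11.1 CPM in Control and 0.137 to 0.327 CPM in Mta123KO), Irs4, an adaptor of insulin signalling (6.82 to 9.51 CPM in Control and 0.183 to 0.414 CPM in Mta123KO), Cdk5r2, an activator of Cdk5 in neurons (6.71 to 8.99 CPM in Control and 0.183 to 0.394 CPM in Mta123KO), Fam19a4, a secreted peptide (3.22 to 10.2 CPM in Control and 0.275 to 0.689 CPM in Mta123KO), and Tll1, a protease that processes matrix and BMP antagonists (4.95 to 6.06 CPM in Control and 0.275 to 0.295 CPM in Mta123KO). Mta2 itself completed the 12. The genotypes did not overlap for any of them, which the ranking rule required.

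Promoter sequences are shown for 5 of these genes, the gene with the largest increase and the one with the largest decrease shared by both lines, the partner keratins Krt8 and Krt18, which moved together, and the trophoblast factor Gata3. Each runs 5′ to 3′ from 250 bases before to 50 bases after the start of the gene in RefSeq on GRCm38.p6, with every CpG dinucleotide in capitals. Positions in the same order are chr1:65032710-65033009, minus strand; chr6:117168285-117168584, plus strand; chr15:102004293-102004592, minus strand; chr15:102027966-102028265, plus strand; and chr2:9878551-9878850, minus strand. Over the 32851 promoters of this table the median number of CpGs was 7, with quartiles of 3 and 20. Akr1cl had 0, Krt8 6, Krt18 17, Cxcl12 20 and Gata3 22.
Akr1cl: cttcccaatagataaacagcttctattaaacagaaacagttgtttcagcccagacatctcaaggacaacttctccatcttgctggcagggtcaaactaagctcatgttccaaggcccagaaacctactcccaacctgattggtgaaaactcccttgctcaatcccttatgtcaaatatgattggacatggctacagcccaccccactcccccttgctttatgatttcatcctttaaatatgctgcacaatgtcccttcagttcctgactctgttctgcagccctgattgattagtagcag
Cxcl12: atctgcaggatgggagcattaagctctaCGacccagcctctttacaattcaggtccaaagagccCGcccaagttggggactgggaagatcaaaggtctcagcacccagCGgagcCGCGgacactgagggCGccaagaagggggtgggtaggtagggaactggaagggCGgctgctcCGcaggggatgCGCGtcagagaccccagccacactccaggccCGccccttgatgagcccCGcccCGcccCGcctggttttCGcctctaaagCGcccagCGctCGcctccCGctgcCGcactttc
Krt8: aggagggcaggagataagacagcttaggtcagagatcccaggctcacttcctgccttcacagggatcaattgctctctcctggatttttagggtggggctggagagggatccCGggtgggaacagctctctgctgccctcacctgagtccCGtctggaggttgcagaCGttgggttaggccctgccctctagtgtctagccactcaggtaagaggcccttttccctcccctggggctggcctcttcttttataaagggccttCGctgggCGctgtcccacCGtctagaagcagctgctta
Krt18: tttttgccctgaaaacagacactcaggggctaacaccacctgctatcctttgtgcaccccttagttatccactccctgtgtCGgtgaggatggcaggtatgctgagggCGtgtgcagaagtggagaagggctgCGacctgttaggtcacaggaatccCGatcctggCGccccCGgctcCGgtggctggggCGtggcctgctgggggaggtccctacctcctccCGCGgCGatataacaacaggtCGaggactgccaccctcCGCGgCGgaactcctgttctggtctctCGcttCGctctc
Gata3: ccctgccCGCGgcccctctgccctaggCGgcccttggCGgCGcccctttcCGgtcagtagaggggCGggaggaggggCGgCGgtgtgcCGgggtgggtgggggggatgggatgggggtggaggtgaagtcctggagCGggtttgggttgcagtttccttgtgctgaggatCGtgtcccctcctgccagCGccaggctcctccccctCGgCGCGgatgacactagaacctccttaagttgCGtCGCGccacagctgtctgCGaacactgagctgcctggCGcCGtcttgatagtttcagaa
The 5 promoters thus differed in CpG content. Since the table holds a promoter for only 76.5% of the 15467 protein-coding genes tested, promoter content was not compared between sets of genes.

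Gene programmes were described with lists of lineage, signalling, adhesion, transport, metabolic and chromatin genes. Over all genes tested the median log2 fold change was 0.01, and 13.2% rose and 7.43% fell. These values stand beside each list in place of a test of the list. A gene at low level in Control passes the filter on low counts only where it is high in Mta123KO, so a share of the tested members describes those members and not the whole list. Genes named beside a small count without values were picked out after their values were seen.

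**Figure D4:**
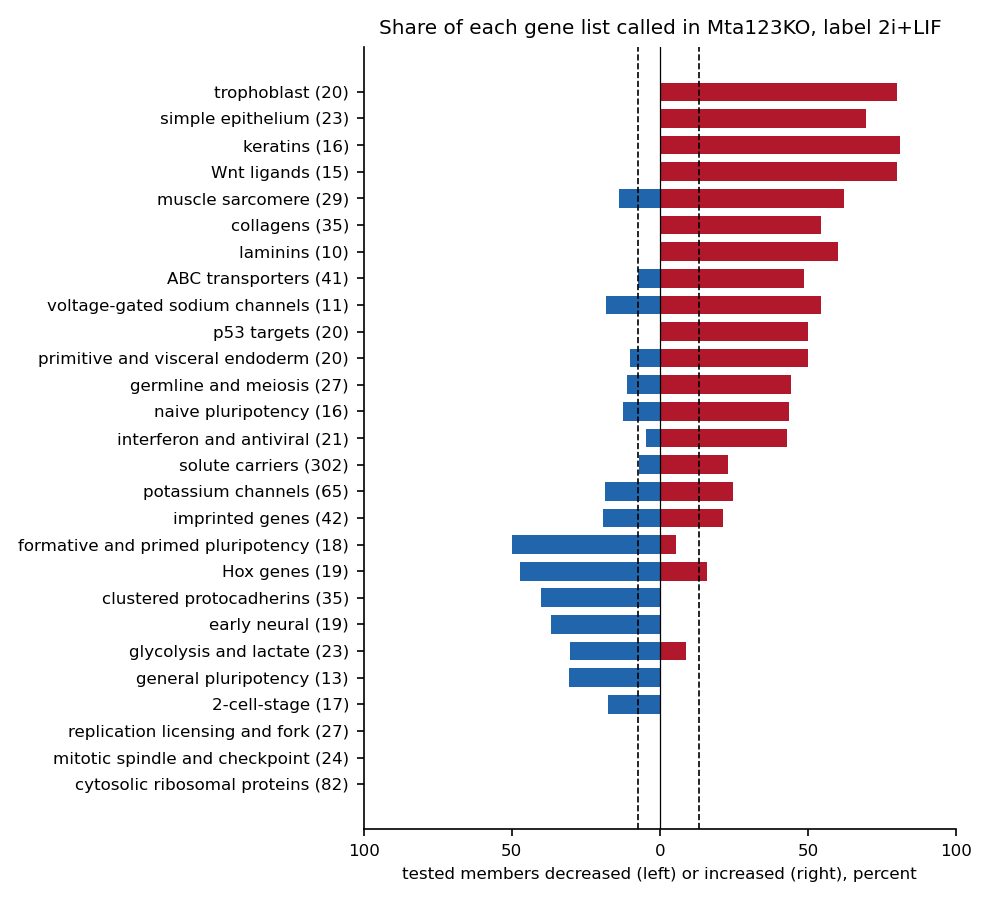
Percent of the tested members of 27 gene lists that were increased (right, red) or decreased (left, blue) in Mta123KO, with the number tested in brackets. Dashed lines mark the share of all genes tested, 13.2% increased and 7.43% decreased. Trophoblast genes, keratins and Wnt ligands stand at 80%, 81.3% and 80% increased, and the replication, mitotic and cytosolic ribosomal lists have no called member.

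Several formative pluripotency genes fell, and several naive ones rose. Of 18 formative and primed genes 9 fell, 8 of them in both lines, 1 rose and 8 were not called (median log2 fold change -1.23, -1.87 in line 1 and -0.63 in line 2). With lines summed 5 were called decreased. Dnmt3b, a de novo DNA methyltransferase, was counted at 1169, 890.5, 789.5 and 679 CPM in Control and 228, 199.9, 242 and 232 CPM in Mta123KO (log2 fold change -1.97, standard error 0.16, adjusted p = 2.18e-05). All 4 Mta123KO libraries were close together and far below Control. Pou3f1 (Oct6), a POU factor, was counted at 90.5, 58.9, 81.7 and 61.4 CPM in Control and 11.7, 8.34, 24.9 and 18.5 CPM in Mta123KO (log2 fold change -2.21, standard error 0.32, adjusted p = 4.89e-04), and Sall2, a zinc finger factor, at 57.3 to 72.3 CPM in Control and 5.91 to 9.67 CPM in Mta123KO (log2 fold change -3.14, standard error 0.16, adjusted p = 2.69e-06).

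Lef1, a nuclear partner of beta-catenin, was counted at 116, 93.7, 93.1 and 96.4 CPM in Control and 3.06, 4.06, 28.3 and 23.3 CPM in Mta123KO. It fell in both lines but further in line 1 (-4.81 in line 1 and -1.95 in line 2, adjusted p of the line difference = 1.82e-06), and with lines summed its adjusted p was 0.102. Fgf5, the growth factor that defines primed epiblast, was low throughout, at 1.85 to 3.99 CPM in Control and 0.229 to 1.58 CPM in Mta123KO, and its adjusted p was 0.107 with lines summed. The 1 increased gene, Otx2, was counted at 22.8, 17.1, 15.9 and 9.36 CPM in Control and 26.2, 22.7, 44.9 and 37.8 CPM in Mta123KO, with overlap between the groups. Its log2 fold change of 1.01 was just past the threshold (adjusted p = 0.0158), was 0.58 in line 1 and 1.34 in line 2, and fell below 1 without either Mta123KO line 2 library (0.83 and 0.93) or without Control replicate 2_1 or 2_2 (0.997 and 0.82).

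Of 16 naive genes 7 rose, 5 of them in both lines, and 2 fell, both in both lines (median log2 fold change 0.70, 0.29 in line 1 and 0.96 in line 2). Klf4 was counted at 2.92, 7.88, 2.95 and 4.96 CPM in Control and 17.9, 22.5, 23.98 and 26.03 CPM in Mta123KO (log2 fold change 2.27, standard error 0.31, adjusted p = 3.63e-04). Tfcp2l1 was counted at 29.3, 42.2, 34.2 and 38.5 CPM in Control and 228, 216, 132 and 129.9 CPM in Mta123KO (log2 fold change 2.29, standard error 0.22, adjusted p = 4.99e-05), with both line 1 libraries of Mta123KO above those of line 2. Esrrb was counted at 42.8 to 73.4 CPM in Control and 137 to 179 CPM in Mta123KO (log2 fold change 1.37, standard error 0.16, adjusted p = 1.65e-04) and Tbx3, a T-box factor, at 1.87 to 5.09 CPM in Control and 15.5 to 24.6 CPM in Mta123KO (log2 fold change 2.33, standard error 0.29, adjusted p = 1.97e-04). The groups did not overlap for any of these 4 genes.

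The list did not move as a whole. Nanog was counted at 48.1, 83.98, 62.9 and 75.4 CPM in Control and 70.9, 68.2, 61.2 and 64.5 CPM in Mta123KO, so the groups overlapped (log2 fold change -0.03, adjusted p = 0.888), as did those of Zfp42 (Rex1), at 21.5 to 28.4 CPM in Control and 19.7 to 26.3 CPM in Mta123KO (-0.12, adjusted p = 0.478). Gbx2, a homeobox factor listed as naive because LIF signalling induces it, went the other way, at 49.1, 50.01, 73.6 and 75.2 CPM in Control and 5.08, 4.54, 8.49 and 8.102 CPM in Mta123KO (log2 fold change -3.24, standard error 0.25, adjusted p = 1.93e-05). Fgf4, the autocrine growth factor of ES cells, was counted at 115, 103, 109 and 80.3 CPM in Control and 14.2, 12.6, 44.4 and 33.4 CPM in Mta123KO (log2 fold change -1.96, standard error 0.38, adjusted p = 0.00252; 0.0636 with lines summed).

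Of 13 general pluripotency genes 4 fell and 9 were not called (median log2 fold change -0.54, -0.79 in line 1 and -0.37 in line 2; 1 gene was higher at an unadjusted p under 0.05, and DESeq2 called the same number of increased genes, 0). Tdgf1 (Cripto), the co-receptor of Nodal, was counted at 267, 264, 249 and 265 CPM in Control and 46.96, 61.3, 87.5 and 93.8 CPM in Mta123KO (log2 fold change -1.85, standard error 0.20, adjusted p = 9.51e-05). Foxd3, a forkhead repressor, was counted at 27.7, 24.8, 18.9 and 21.5 CPM in Control and 0.56, 0.687, 7.43 and 5.86 CPM in Mta123KO and fell further in line 1 (-5.22 in line 1 and -1.81 in line 2, adjusted p of the line difference = 6.59e-06). Its adjusted p was 0.0119 over the 8 libraries and 0.139 with lines summed. The remaining 2, Utf1 and Dppa4, did not meet the rule for both lines. Pou5f1 (Oct4) was counted at 442 to 494 CPM in Control and 236 to 368 CPM in Mta123KO, without overlap but under the threshold on fold change (-0.64, adjusted p = 0.00626). Sox2 was counted at 85.8, 104, 77.2 and 75.5 CPM in Control and 62.97, 58.2, 146 and 142 CPM in Mta123KO, below Control in line 1 and above it in line 2 (log2 fold change 0.26, adjusted p = 0.508, and 5.83e-05 for the line difference).

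Targets of the signals that the 2i inhibitors act on were mixed. Of 15 ERK feedback and immediate-early genes 4 rose and 2 fell, 4 and 1 in both lines (median log2 fold change -0.06, -0.49 in line 1 and 0.12 in line 2). Dusp6, a phosphatase induced by ERK, was counted at 145, 137, 209 and 187 CPM in Control and 80.3, 52.8, 104 and 69.6 CPM in Mta123KO (log2 fold change -1.15, standard error 0.21, adjusted p = 0.00182), and Myc, a growth-promoting factor, at 21.1 to 28.9 CPM in Control and 3.88 to 7.91 CPM in Mta123KO (log2 fold change -1.97, standard error 0.23, adjusted p = 1.36e-04). Dusp6 did not meet the rule for both lines (-1.35 in line 1 and -0.97 in line 2). Of 11 beta-catenin targets tested, of 14 listed, 4 rose and 1, Lef1, fell, 2 and 1 in both lines (median log2 fold change 0.87, 0.80 in line 1 and 0.10 in line 2). With lines summed 2 of them were called increased and 0 decreased.

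Most trophoblast genes that were tested rose. Of 22 listed, 20 were tested and 16 of these rose (80%), 14 in both lines (median log2 fold change 3.12, 3.82 in line 1 and 2.43 in line 2). The remaining 4 were not called, and DESeq2 likewise called 0 decreased, with 0 lower at an unadjusted p under 0.05. Their summed level was 153 to 393 CPM in Control and 946 to 2667 CPM in Mta123KO. Gata3 (ENSMUSG00000015619, chromosome 2, 9857078 to 9890034), a factor that specifies trophoblast, was counted at 0.0398, 0.166, 0.228 and 0.0222 CPM in Control and 9.68, 7.54, 3.102 and 2.64 CPM in Mta123KO (log2 fold change 5.61, standard error 0.67, adjusted p = 1.68e-04). Elf5, a factor of trophoblast stem cells, was counted at 0.139 to 0.291 CPM in Control and 0.886 to 3.87 CPM in Mta123KO, and Eomes, another, at 2.84, 2.75, 2.84 and 3.07 CPM in Control and 12.999, 10.5, 9.55 and 8.78 CPM in Mta123KO (log2 fold change 1.86, standard error 0.14, adjusted p = 1.59e-05). Hand1, a factor of trophoblast giant cells and of the heart, was counted at 0.477, 0.811, 0.478 and 0.444 CPM in Control and 35.6, 28.6, 4.26 and 4.14 CPM in Mta123KO, with line 1 above line 2 (log2 fold change 5.03, standard error 0.82, adjusted p = 9.67e-04).

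The size of the trophoblast change differed between the lines. Of the 20 genes 14 were higher in line 1 than in line 2 in the direct test. Esx1, a placental homeobox factor, was counted at 0.477, 0.728, 0.685 and 1.19999 CPM in Control and 47.5, 41.1, 13.4 and 13.1 CPM in Mta123KO (log2 fold change 5.22, standard error 0.55, adjusted p = 9.11e-05), and Ly6a (Sca-1), a surface antigen of stem and trophoblast cells, at 0.0398, 0, 0.0415 and 0 CPM in Control and 6.95, 6.21, 2.36 and 2.701 CPM in Mta123KO. Few counts lie behind Ly6a in Control and it has close copies, so its fold is uncertain. Cdx2, the factor that defines trophectoderm, differed between the lines. It was counted at 0.278, 0.333, 0.747 and 0.622 CPM in Control and 3.98, 3.37, 0.591 and 0.305 CPM in Mta123KO (log2 fold change 2.06, adjusted p = 0.0492), with changes of 2.89 in line 1 and -0.15 in line 2 (adjusted p of the line difference = 3.53e-04). This call was lost with lines summed (0.233) and when any 1 of 6 libraries was dropped, all except the line 2 libraries of Mta123KO (adjusted p from 0.068 to 0.132). In bulk RNA, more cells of a type and more RNA per cell cannot be told apart, nor can fewer cells and less RNA per cell.

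Most tested genes of simple epithelium rose as well. Of 24 listed, 23 were tested and 16 rose (69.6%), 15 in both lines (median log2 fold change 2.62, 3.16 in line 1 and 1.76 in line 2), and 13 of the 23 were higher in line 1. No member was called decreased by edgeR or DESeq2 or was lower at an unadjusted p under 0.05. Keratins are the intermediate filaments of epithelia. Of 49 keratin genes, 16 passed the filter on low counts and 13 of these rose, all in both lines, and 6 of the 13 were still called with lines summed. Krt8 (gene ENSMUSG00000049382, chromosome 15, 101996698 to 102004482) reached 153, 180.3, 28.7 and 33.3 CPM in Mta123KO from 5.19, 4.16, 5.77 and 5.5999 CPM in Control (log2 fold change 4.26, standard error 0.64, adjusted p = 5.97e-04). Its partner Krt18 was counted at 8.39, 8.82, 6.04 and 5.96 CPM in Control and 157, 173, 27.03 and 27.7 CPM in Mta123KO (log2 fold change 3.72, standard error 0.66, adjusted p = 0.00151). Both keratins were higher in line 1 of Mta123KO, and with lines summed Krt18 had an adjusted p of 0.057. Krt7 was counted at 0.311 to 0.707 CPM in Control and 6.45 to 45.3 CPM in Mta123KO and Krt19 at 0.25 to 0.727 CPM in Control and 5.88 to 24.4 CPM in Mta123KO.

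Some junction genes of epithelia rose. Cldn6, a claudin of tight junctions in early embryonic epithelium, was counted at 8.87, 6.49, 7.599 and 8.16 CPM in Control and 91.7, 89.3, 46.1 and 44.5 CPM in Mta123KO (log2 fold change 3.13, standard error 0.27, adjusted p = 3.51e-05). Of 33 claudin genes 13 were tested, 4 of which rose and 1, Cldn5, fell (median log2 fold change 0.18, 0.18 in line 1 and 0.15 in line 2). Crb3, an apical polarity protein, was counted at 2.15, 2.48, 2.03 and 1.27 CPM in Control and 21.4, 18.9, 18.3 and 16.9 CPM in Mta123KO (log2 fold change 3.25, standard error 0.19, adjusted p = 5.32e-06), close to equal in the 2 lines. Of 15 aquaporins and connexins tested (30 listed) 6 rose and 1, Gja1, fell.

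Most Wnt ligands that were tested rose. Of 19 listed, 15 were tested and 12 rose (80%), 11 in both lines (median log2 fold change 2.33, 2.67 in line 1 and 1.51 in line 2), and 7 were higher in line 1. None was called decreased by edgeR or DESeq2, with 0 lower at an unadjusted p under 0.05. With lines summed 4 of the 12 were still called. Wnt7b, an epithelial and placental ligand, was counted at 0.0995, 0.0832, 0.291 and 0.4 CPM in Control and 34.8, 27.6, 13.3 and 11.8 CPM in Mta123KO (log2 fold change 6.65, standard error 0.56, adjusted p = 2.72e-05). Wnt7a and Wnt4, ligands of the reproductive tract and kidney, were counted at 3.94, 3.78, 0.739 and 0.501 CPM and 8.46, 10.3, 1.62 and 1.37 CPM in Mta123KO and at no more than 0.111 and 0.270 CPM in Control. Their receptors and secreted inhibitors did not move with them, as 3 of 21 rose and 4 fell (median log2 fold change -0.20, -0.06 in line 1 and -0.14 in line 2).

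Other signalling pathways had members that rose and members that fell. Of 20 FGF ligands and receptors 4 rose and 4 fell, all 8 in both lines. Fgfr2, a receptor of trophoblast and epithelium, was counted at 48.1, 44.5, 48.8 and 50.1 CPM in Control and 193, 193, 121 and 135 CPM in Mta123KO (log2 fold change 1.74, standard error 0.16, adjusted p = 3.86e-05), whereas the ligands Fgf4 and Fgf5 fell. Of 22 Nodal and TGF-beta genes 5 rose and 3 fell. Tgfb2, a TGF-beta ligand, was counted at 0.259, 0.0832, 0.332 and 0.2 CPM in Control and 4.67, 5.04, 1.55 and 1.31 CPM in Mta123KO (log2 fold change 3.83, standard error 0.58, adjusted p = 6.21e-04), and the receptor Tgfbr2 at 0.378 to 0.685 CPM in Control and 2.44 to 10.04 CPM in Mta123KO (log2 fold change 3.51, standard error 0.55, adjusted p = 7.32e-04). Nodal itself was counted at 27.3 to 39.2 CPM in Control and 53.3 to 82.5 CPM in Mta123KO and its log2 fold change was 0.997, just below the threshold (adjusted p = 7.43e-04). Without Control replicate 2_2, Mta123KO replicate 2_1 or Mta123KO replicate 2_2 it was past it (1.10, 1.06 and 1.07).

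Of 21 BMP pathway and Id genes 6 rose, all in both lines, and 1, Bmp6, fell (median log2 fold change 0.61, 0.65 in line 1 and 0.25 in line 2). Id2, an inhibitor of helix-loop-helix factors and a target of BMP signals, was counted at 2.49, 1.64, 2.93 and 2.93 CPM in Control and 76.5, 62.4, 23.2 and 18.9 CPM in Mta123KO (log2 fold change 4.18, standard error 0.50, adjusted p = 1.66e-04). Bmp4, a ligand, was counted at 0.915, 0.79, 1.56 and 1.64 CPM in Control and 4.13, 3.39, 7.09 and 5.84 CPM in Mta123KO (log2 fold change 2.06, standard error 0.31, adjusted p = 6.61e-04), with both line 2 libraries of Mta123KO above those of line 1. Of 17 retinoid pathway genes 6 rose and 2 fell, 3 and 2 in both lines. Rarg, a retinoic acid receptor, was counted at 198, 184, 235 and 216 CPM in Control and 36.1, 27.2, 69.4 and 57.6 CPM in Mta123KO (log2 fold change -2.13, standard error 0.27, adjusted p = 2.21e-04).

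Axon guidance genes moved both ways. Of 48 tested 15 rose and 7 fell, 9 and 6 in both lines.  Sema6a, a membrane semaphorin, was counted at 64.6, 48.3, 49.2 and 45.9 CPM in Control and 8.78, 10.01, 8.71 and 6.795 CPM in Mta123KO (log2 fold change -2.601, standard error 0.15, adjusted p = 4.61e-06), and Sema3e, a secreted one, at 36.3, 42.9, 43.1 and 48.5 CPM in Control and 5.77, 6.28, 4.14 and 3.57 CPM in Mta123KO (log2 fold change -3.11, standard error 0.19, adjusted p = 5.97e-06). Epha7, an ephrin receptor, was counted at 27.4 to 42.2 CPM in Control and 2.63 to 7.53 CPM in Mta123KO (log2 fold change -2.89, standard error 0.33, adjusted p = 1.31e-04).

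Several early neural genes fell, and many genes of striated muscle rose. Of 25 early neural genes listed, 19 were tested and 7 fell (36.8%), 6 in both lines (median log2 fold change -0.52, -0.34 in line 1 and -0.66 in line 2). No member was called increased by edgeR, 3 being higher at an unadjusted p under 0.05, or by DESeq2. Sox1, an early neuroectoderm factor, was counted at 40.6, 46.8, 50.6 and 57.7 CPM in Control and 9.103, 8.48, 11.1 and 9.23 CPM in Mta123KO (log2 fold change -2.37, standard error 0.13, adjusted p = 3.51e-06). Pax6, a factor of eye and forebrain, was counted at 9.89, 13.5, 10.4 and 10.7 CPM in Control and 1.64, 1.42, 0.812 and 0.871 CPM in Mta123KO (log2 fold change -3.22, standard error 0.24, adjusted p = 1.54e-05). Olig2, a factor of motor neuron and oligodendrocyte progenitors, was counted at 6.56 to 7.25 CPM in Control and 0.481 to 1.895 CPM in Mta123KO. The genotypes did not overlap for any of these 3 genes, and both lines fell in each.

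Of 34 sarcomere and muscle genes 29 were tested, and 18 rose, all in both lines, whereas 4 fell, 2 of them in both lines (median log2 fold change 1.94, 1.705 in line 1 and 1.69 in line 2). Without Mta123KO replicate 2_1, 2 rather than 4 fell. Tnnt3, given above, had the largest change of the list. Their summed level was 223 to 249.8 CPM in Control and 432 to 565 CPM in Mta123KO.  Of 8 cardiac factors tested 3 rose and 1, Gata4, fell. Hcn4, the pacemaker channel, was counted at 0.457, 0.603, 0.934 and 0.778 CPM in Control and 18.5, 21.7, 6.43 and 6.86 CPM in Mta123KO (log2 fold change 4.27, standard error 0.48, adjusted p = 1.29e-04), with line 1 above line 2.

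Markers of the primitive and visceral endoderm did not move as a unit. Of 20 tested 10 rose and 2 fell, 8 and 1 in both lines (median log2 fold change 1.15, 1.22 in line 1 and 0.47 in line 2). Sox7, an endoderm and endothelial factor, was counted at 0.159, 0.499, 0.81 and 0.8 CPM in Control and 4.18, 3.46, 3.15 and 2.72 CPM in Mta123KO (log2 fold change 2.58, standard error 0.40, adjusted p = 7.17e-04). With lines summed 6 were called increased and no longer any decreased. Of 4 marker genes of the lineage, Gata6 and Gata4 fell, whereas Sox17 (0.229 to 1.57 CPM in Control and 0.403 to 0.657 CPM in Mta123KO) and Pdgfra (0.603 to 4.46 CPM in Control and 2.41 to 3.58 CPM in Mta123KO) overlapped between the genotypes. Gata6 was counted at 0.636, 1.52, 5.42 and 7.11 CPM in Control and 0.689, 0.756, 0.369 and 0.457 CPM in Mta123KO, and the Control line 1 libraries lay near or within the range of Mta123KO (log2 fold change -2.68, standard error 0.70, adjusted p = 0.0108, and 0.109 with lines summed). Gata4 was counted at 1.91, 2.06, 3.03 and 3.67 CPM in Control and 2.001, 1.42, 0.542 and 0.501 CPM in Mta123KO, also with overlap (log2 fold change -1.25, standard error 0.45, adjusted p = 0.0415), and this call was lost with lines summed (0.224) and without Control replicates 1_2, 2_1 or 2_2 (adjusted p = 0.0542, 0.0878 and 0.105) or Mta123KO replicates 1_2, 2_1 or 2_2 (adjusted p = 0.0517, 0.0794 and 0.0715).

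Germline genes rose in part. Of 27 tested 12 rose and 3 fell, 11 and 2 in both lines (median log2 fold change 0.53, 0.46 in line 1 and 0.79 in line 2). Tex101, a glycoprotein of germ cells, was counted at 0.298, 0.458, 0.623 and 0.444 CPM in Control and 15.1, 11.3, 5.24 and 6.32 CPM in Mta123KO (log2 fold change 4.37, standard error 0.40, adjusted p = 4.36e-05), and the homeobox genes Rhox6 and Rhox9, of placenta and germ cells, at 1.55 to 3.34 and 0.832 to 1.87 CPM in Control and 19.103 to 53.2 and 10.2 to 34.4 CPM in Mta123KO. The 2-cell-stage genes, a set expressed in rare ES cells, separated the lines. Of 17 tested 0 rose in edgeR or DESeq2, with 0 higher at an unadjusted p under 0.05, and 3, Zfp352, Duxf3 and Tcstv1, fell. Of these 3, 1 met the rule for both lines and 0 were still called with lines summed. When any 1 of 6 libraries was left out (all except Control replicate 1_1 and Mta123KO replicate 1_2), 1 member was called decreased. Their median log2 fold change was 0.22 in line 1 and -1.96 in line 2, and 10 of the 17 were higher in line 1. Zscan4c, the leading member of a multicopy family, was counted at 10.2, 18.8, 29.7 and 34.6 CPM in Control and 57.01, 45.003, 5.71 and 10.4 CPM in Mta123KO (log2 fold change 0.34, adjusted p = 0.699, and 0.00162 for the line difference), above Control in line 1 and below it in line 2.

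Hox genes, which pattern the body axis, were low and fell more often than they rose. Of 39 listed, 19 were tested, and 9 fell and 3 rose, 8 and 3 in both lines (median log2 fold change -0.995, -0.59 in line 1 and -1.68 in line 2). With lines summed 3 of the 9 and 2 of the 3 were still called. Hoxa10 was counted at 0.457, 0.978, 1.599 and 3.78 CPM in Control and 0.151, 0.0917, 0.0246 and 0.0653 CPM in Mta123KO, with Control library 2_2 the highest (log2 fold change -4.29, standard error 0.76, adjusted p = 0.00145). Hoxb8 went the other way, at 0.0597, 0.0416, 0.0415 and 0.0889 CPM in Control and 2.97, 2.18, 0.542 and 0.523 CPM in Mta123KO (log2 fold change 4.69, standard error 0.75, adjusted p = 8.23e-04).

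Many tested collagen and laminin genes of the extracellular matrix rose, whereas integrins, cadherins and matrix metalloproteases had smaller shares of increased members. Of 44 collagen genes 35 were tested and 19 rose (54.3%), 15 in both lines (median log2 fold change 1.17, 1.15 in line 1 and 1.13 in line 2). With lines summed 13 of the 19 were still called. None was called decreased in edgeR or DESeq2, 2 being lower at an unadjusted p under 0.05. Col6a3 and Col6a1, chains of the microfibrillar collagen VI, were counted at 1.42, 1.54, 4.01 and 4.07 CPM and 2.88, 3.62, 1.72 and 1.94 CPM in Mta123KO and at 0.0415 to 0.200 and 0.358 to 0.541 CPM in Control. Both line 2 libraries were the higher ones for Col6a3 and both line 1 libraries for Col6a1. Of 10 laminins tested 6 rose, 4 in both lines, and 4 were still called with lines summed. Lamb3, a laminin chain of epithelial basement membranes, was counted at 0.656, 0.874, 0.353 and 0.289 CPM in Control and 8.59, 7.699, 6.67 and 6.12 CPM in Mta123KO (log2 fold change 3.73, standard error 0.32, adjusted p = 3.07e-05).

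Of 24 integrins tested 10 rose and 1 fell, 6 and 1 in both lines. Of 13 classical and other cadherins 3 rose and 2 fell, all 5 in both lines, and of 28 matrix metalloproteases 5 rose and 1 fell. Itgb2, the beta subunit of leukocyte integrins, was counted at 0.398, 0.166, 0.249 and 0.422 CPM in Control and 16.6, 11.8, 6.105 and 6.47 CPM in Mta123KO (log2 fold change 5.04, standard error 0.44, adjusted p = 3.32e-05), and Itgam, one of its alpha partners, was the 1 that fell. Protocadherins mediate contacts between neurons. Of 7 non-clustered protocadherins tested 4 fell and 1 rose. Pcdh8 was counted at 1.85, 2.54, 3.82 and 4.89 CPM in Control and 0.56, 0.527, 0.886 and 0.544 CPM in Mta123KO (log2 fold change -2.38, standard error 0.34, adjusted p = 4.27e-04), and Pcdh11x at 0.416 to 0.716 CPM in Control and 0.043 to 0.0492 CPM in Mta123KO.

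The clustered protocadherins could not be read as separate genes. Of 35 tested 14 fell, all in both lines, and none was called increased by edgeR or DESeq2 or higher at an unadjusted p under 0.05. The 13 alpha genes among them had Control means of 0.835 to 1.28 CPM and log2 fold changes of -2.90 to -2.14, and the 21 gamma genes had Control means of 57.5 to 67.1 CPM and log2 fold changes of -0.23 to -0.02. Genes of a cluster share their last exons, and members of a cluster had nearly the same values, so each cluster is better taken as 1 measurement. Pcdhac2 was counted at 0.976 to 1.85 CPM in Control and 0.0917 to 0.246 CPM in Mta123KO. The single-exon gene Pcdhb17, with few counts, was counted at 0.291 to 0.395 CPM in Control and 0 to 0.0492 CPM in Mta123KO and is the only beta gene that passed the filter.

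Transport genes that were called mostly rose. Of 302 solute carriers tested (385 listed) 70 rose (23.2%) and 21 fell (6.95%), 57 and 14 in both lines (median log2 fold change 0.22, 0.26 in line 1 and 0.14 in line 2). Slc26a9, an epithelial chloride channel, was counted at 0, 0.146, 0.104 and 0.222 CPM in Control and 7.12, 5.96, 3.003 and 4.44 CPM in Mta123KO (log2 fold change 5.44, standard error 0.56, adjusted p = 7.62e-05). Of 41 ABC transporters 20 rose (48.8%), 17 in both lines, and 3 fell (median log2 fold change 0.92, 0.86 in line 1 and 0.71 in line 2), and 10 of the 20 were still called with lines summed.

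Ion channels were mixed. Of 65 potassium channel genes tested 16 rose and 12 fell, 14 and 7 in both lines. Kcnn2, a calcium-activated potassium channel, was counted at 3.46, 3.79, 3.24 and 3.27 CPM in Control and 0.366, 0.367, 0.665 and 0.392 CPM in Mta123KO (log2 fold change -2.94, standard error 0.22, adjusted p = 1.53e-05). Of 11 voltage-gated sodium channel genes 6 rose and 2 fell, all 8 in both lines.

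Some glycolytic genes fell. Of 23 genes of glycolysis and lactate metabolism 7 fell, 6 in both lines, and 2 rose, neither in both and neither without Mta123KO replicate 1_1 (median log2 fold change -0.61, -0.96 in line 1 and -0.51 in line 2), and their summed level was 7415 to 8687 CPM in Control and 5013 to 5334 CPM in Mta123KO. Tpi1, triosephosphate isomerase, was counted at 339, 326, 272 and 288 CPM in Control and 52.7, 57.9, 32.5 and 39.3 CPM in Mta123KO (log2 fold change -2.75, standard error 0.18, adjusted p = 8.65e-06). Aldoa, an aldolase, was counted at 1296, 1314, 1007 and 1064 CPM in Control and 367, 362, 443 and 459 CPM in Mta123KO (log2 fold change -1.52, standard error 0.12, adjusted p = 2.09e-05), and Pdk1, a kinase that restrains pyruvate oxidation, at 312, 345, 268 and 304 CPM in Control and 62.02, 58.2, 105 and 123 CPM in Mta123KO (log2 fold change -1.82, standard error 0.24, adjusted p = 2.71e-04). Ldha, lactate dehydrogenase A, was counted at 475 to 655 CPM in Control and 234 to 393 CPM in Mta123KO, without overlap but under the threshold on fold change (-0.84, adjusted p = 0.00454). Several of these genes have processed copies in the genome, which can share reads.

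Upp1, uridine phosphorylase, a catabolic enzyme, was counted at 275, 308, 171 and 202 CPM in Control and 6.82, 9.62, 19.4 and 24.9 CPM in Mta123KO (log2 fold change -3.98, standard error 0.42, adjusted p = 8.84e-05), the lowest fold of the 15 genes of nucleoside and amino acid catabolism, of which 2 rose and 1, Upp1, fell (2 fell without Control replicate 2_1 or 2_2). Of 23 cholesterol synthesis genes 1 rose and 1 fell (median log2 fold change -0.29, -0.64 in line 1 and -0.07 in line 2).

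Growth and housekeeping genes had few or no calls. Of 27 replication genes edgeR and DESeq2 called 0 in either direction, although 23 were lower at an unadjusted p under 0.05 and 1 was higher, with a median log2 fold change of -0.52. Of 24 mitotic genes both tools also called 0, with 9 higher and 5 lower at that level. Of 82 cytosolic ribosomal protein genes both called 0, with 5 higher and 55 lower (median -0.26). Of 78 mitochondrial ribosomal proteins 1 fell, and of 66 clustered histone genes 1 fell (2 without Control replicate 1_2). Messages of the mitochondrial genome were higher in all 13 genes tested at an unadjusted p under 0.05 (median 0.78), of which 2 passed both thresholds (1 without Control replicate 1_2 or Mta123KO replicate 2_1). The mitochondrial gene mt-Nd2 was counted at 706, 629, 744 and 634 CPM in Control and 1703, 1458, 1934 and 1627 CPM in Mta123KO (log2 fold change 1.31, standard error 0.10, adjusted p = 1.64e-05). The share of mitochondrial rRNA was above the Control range in 3 of the 4 Mta123KO libraries (11.6% to 12.6%) and within it in replicate 2_2 (9.24%), where mt-Nd2 lay within the range of the other 3, and its part in this was not tested.

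Inhibitors of the cell cycle and p53 targets were among the genes that rose. Of 22 cyclins and CDK inhibitors 5 rose, all in both lines. Cdkn2a, the locus of p16 and p19, was counted at 6.902, 7.18, 8.16 and 9.9999 CPM in Control and 25.8, 25.3, 24.3 and 20.9 CPM in Mta123KO (log2 fold change 1.58, standard error 0.13, adjusted p = 2.66e-05). Of 20 p53 targets tested 10 rose, 9 in both lines, and 9 of the 10 were called with lines summed (median log2 fold change 1.002, 1.19 in line 1 and 0.78 in line 2). None was called decreased by either tool, with 0 lower at an unadjusted p under 0.05. Mdm2, the ligase that restrains p53, was counted at 86.3, 80.2, 112 and 117 CPM in Control and 599, 464, 334 and 349.6 CPM in Mta123KO (log2 fold change 2.15, standard error 0.21, adjusted p = 5.78e-05), and Cdkn1a (p21) at 18.5, 14.9, 26.2 and 26.96 CPM in Control and 55.03, 48.8, 50.02 and 41.8 CPM in Mta123KO (log2 fold change 1.18, standard error 0.19, adjusted p = 8.05e-04).

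Other targets of p53 had larger changes. Phlda3, an inhibitor of Akt, was counted at 10.3, 8.61, 13.2 and 15.3 CPM in Control and 101, 91.3, 66.7 and 65.7 CPM in Mta123KO (log2 fold change 2.78, standard error 0.21, adjusted p = 1.83e-05). Perp, a desmosome protein of epithelia that is also a p53 target, was counted at 4.97, 4.202, 7.62 and 9.58 CPM in Control and 185, 155, 55.2 and 54.3 CPM in Mta123KO (log2 fold change 4.09, standard error 0.50, adjusted p = 1.86e-04), with line 1 above line 2. Of 21 interferon and antiviral genes 9 rose and 1 fell, 8 and 1 in both lines. Rsad2 (viperin), an antiviral enzyme, was counted at 1.07, 0.936, 1.89 and 1.56 CPM in Control and 11.1, 10.04, 10.7 and 9.93 CPM in Mta123KO (log2 fold change 2.94, standard error 0.21, adjusted p = 1.39e-05), alike in all 4 Mta123KO libraries. Of 5 metallothioneins 2 rose, and 4 did without Control replicate 2_2 or Mta123KO replicate 1_1. Mt1, which binds zinc, was counted at 235, 242, 300.2 and 285 CPM in Control and 555, 639.6, 855 and 909.9 CPM in Mta123KO (log2 fold change 1.48, standard error 0.16, adjusted p = 1.16e-04).

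Most other subunits of NuRD were not called, and neither were most genes tested (17181 of 21651). Of 15 subunit genes Mta2 and Mta3 fell (13.3%) and Chd3 and Mbd2 rose (13.3%), beside 7.43% and 13.2% of all genes. The remaining 11 were not called. Chd3, a remodeller that can take the place of Chd4, was counted at 23.5, 26.96, 25.2 and 24.2 CPM in Control and 139, 144, 86.4 and 87.5 CPM in Mta123KO (log2 fold change 2.19, standard error 0.18, adjusted p = 2.69e-05). Chd4 was counted at 533 to 586 CPM in Control and 457 to 510.3 CPM in Mta123KO (log2 fold change -0.22, standard error 0.06, adjusted p = 0.016), below the threshold on fold change. Mbd2 was counted at 9.81, 10.4, 11.5 and 10.9 CPM in Control and 27.3, 26.6, 19.7 and 21.5 CPM in Mta123KO (log2 fold change 1.16, standard error 0.12, adjusted p = 7.92e-05), with changes of 1.34 in line 1 and 0.96 in line 2. Among 8 partners of NuRD in ES cells, 2 rose and 1, Sall1, fell. Pwwp2b, which binds an MTA and HDAC subcomplex without the remodeller, was counted at 1.23, 0.936, 1.41 and 1.91 CPM in Control and 34.02, 23.8, 22.6 and 17.03 CPM in Mta123KO (log2 fold change 4.15, standard error 0.27, adjusted p = 8.57e-06).

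Chromatin regulators of other complexes were mostly not called, like most genes tested (17181 of 21651 were not called). Of 27 Polycomb genes 3 rose and 2 fell, 2 and 1 in both lines. In contrast, 5 rose without Mta123KO replicate 2_2 and 1 fell without Control replicate 1_1 or 1_2 or Mta123KO replicate 2_1 or 2_2. Phf19, a subunit that recruits Polycomb repressive complex 2, was counted at 4.63, 4.81, 5.19 and 5.3999 CPM in Control and 39.6, 39.9, 31.4 and 30.1 CPM in Mta123KO (log2 fold change 2.81, standard error 0.12, adjusted p = 1.32e-06), with all 4 Mta123KO libraries close together. Phc1, a subunit of Polycomb repressive complex 1, was counted at 592, 662, 578 and 601 CPM in Control and 84.99, 88.5, 257 and 235 CPM in Mta123KO (log2 fold change -1.87, standard error 0.36, adjusted p = 0.00238; 0.0678 with lines summed). Of 15 DNA methylation and TET genes 2 rose and 2 fell, 0 and 2 in both lines. Tet1, which oxidises methylcytosine, was counted at 453, 519, 521 and 525 CPM in Control and 157, 167, 239 and 204 CPM in Mta123KO (log2 fold change -1.396, standard error 0.13, adjusted p = 4.74e-05), Dnmt3l, a cofactor of de novo methylation, at 221 to 251 CPM in Control and 389.6 to 580.2 CPM in Mta123KO (log2 fold change 1.07, standard error 0.12, adjusted p = 1.05e-04). Dnmt3l did not meet the rule for both lines (0.88 in line 1 and 1.24 in line 2). Without Mta123KO replicate 2_1 the change of Dnmt3l was 0.99, below the threshold. The maintenance enzyme Dnmt1 was counted at 332 to 356 CPM in Control and 285 to 307 CPM in Mta123KO (log2 fold change -0.21, under the threshold).

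Of 25 genes of the BAF remodeller 3 rose and 2 fell, 1 and 2 in both lines. Smarca2 (Brm), an alternative ATPase of that complex, was counted at 3.76, 3.18, 3.86 and 3.64 CPM in Control and 72.03, 73.5, 47.4 and 51.2 CPM in Mta123KO (log2 fold change 4.08, standard error 0.17, adjusted p = 1.31e-06). Of 24 corepressor genes 3 fell and 0 rose in edgeR and DESeq2, with 4 higher at an unadjusted p under 0.05. Rest, the repressor of neuronal genes, was counted at 374, 354, 347 and 325 CPM in Control and 145, 143, 172 and 168 CPM in Mta123KO (log2 fold change -1.16, standard error 0.08, adjusted p = 1.13e-05).

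Imprinted genes moved both ways. Of 42 tested 9 rose and 8 fell, 8 and 7 in both lines. H19, a noncoding RNA, was counted at 14.7, 25.4, 43.1 and 46.999 CPM in Control and 6737, 6849, 548 and 857 CPM in Mta123KO (log2 fold change 6.85, standard error 0.998, adjusted p = 5.11e-04), and its neighbour Igf2, a growth factor, at 2.37, 2.12, 4.15 and 5.27 CPM in Control and 118, 130.2, 15.95 and 17.2 CPM in Mta123KO (log2 fold change 4.34, standard error 0.79, adjusted p = 0.00172; 0.0594 with lines summed). Both were higher in line 1 of Mta123KO (adjusted p of the line difference = 2.67e-04 and 3.94e-05). In the Dlk1 and Meg3 cluster of chromosome 12, Meg3, a noncoding RNA, was counted at 259, 235, 232 and 206 CPM in Control and 50.6, 51.8, 52.3 and 53.97 CPM in Mta123KO (log2 fold change -2.16, standard error 0.08, adjusted p = 8.04e-07), alike in all Mta123KO libraries. Dlk1, a Notch-like ligand, was counted at 1.37 to 1.85 CPM in Control and 0.523 to 1.17 CPM in Mta123KO, with a change just past the threshold (-1.03, adjusted p = 0.00814). That call was lost with lines summed (0.109), and without Control replicate 1_1 and without either line 2 library of Mta123KO the log2 fold change was -0.97, -0.95 and -0.88. Rtl1, Rian and Mirg of the same cluster also fell in both lines. Grb10, a growth inhibitor, was counted at 267, 291, 201 and 228 CPM in Control and 24.96, 23.4, 41.4 and 39.7 CPM in Mta123KO (log2 fold change -2.93, standard error 0.22, adjusted p = 1.55e-05).

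The libraries labelled 48h gave the same comparison in other libraries of the same lines. There 14.1% of 21079 genes rose and 5.93% fell. Of the 2861 increased genes 1565 rose there as well, 54.7% of those increased here and 52.7% of those increased there, and 45 fell there. Of the 1609 decreased genes 452 also fell there, 28.1% of those here and 36.2% of those there, and 58 rose there. Of the increased genes 214 and of the decreased genes 337 were not tested there, and of those tested there 59.1% rose again and 35.5% fell again. Among genes called in both lines the shares were 58.3% and 30.0%. The difference between genotypes itself differed between the labels, by the interaction term of a fit of all 16 libraries, in 1731 of the 4470 called genes (38.7%).

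**Figure D5:**
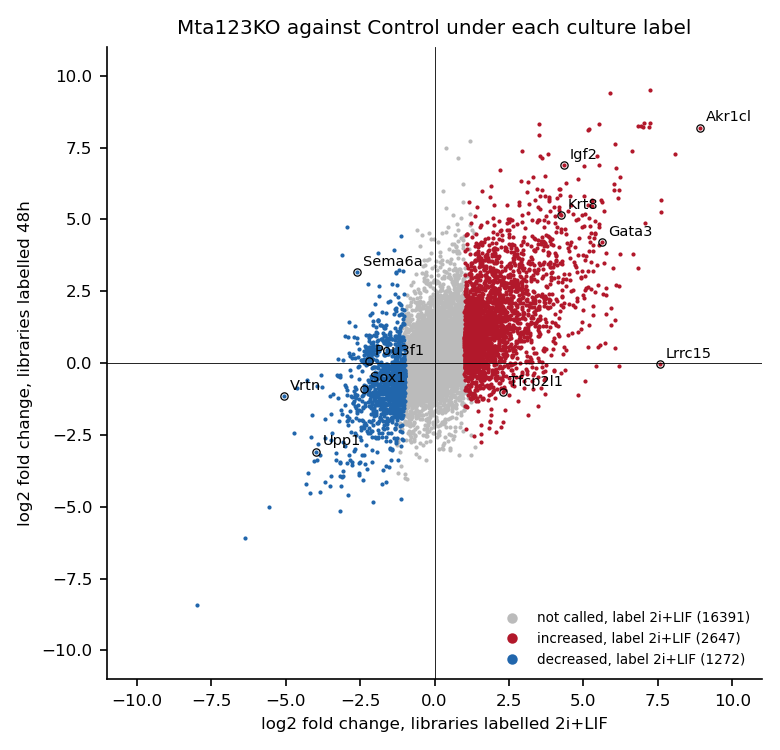
Log2 fold change of Mta123KO against Control in the libraries labelled 2i+LIF (x axis) and labelled 48h (y axis), 1 point per gene tested under both labels, coloured by the call under the label 2i+LIF. Akr1cl, Gata3, Krt8 and Igf2 are high on both axes, Lrrc15 lies near 0 on the y axis, and Sema6a has opposite signs.

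Most of the trophoblast, epithelial and Wnt genes that rose here also rose under the label 48h. In the libraries labelled 48h, 11 of the 16 increased trophoblast genes, 12 of the 16 epithelial genes, 9 of the 13 keratins and 9 of the 12 Wnt ligands were increased too. The log2 fold change there was 5.14 for Krt8 (adjusted p = 1.93e-04) and 4.22 for Gata3 (adjusted p = 4.11e-05). Of the 9 imprinted genes that rose here, 7 were increased there too, among them Igf2 (log2 fold change 6.89, adjusted p = 2.42e-04). Of the 8 that fell here, 1 also fell there, and Meg3, which fell here, had a log2 fold change of 0.48 there (adjusted p = 0.0224). Of the 10 p53 targets that rose, 3 were also increased there.

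Pluripotency genes differed between the labels. Tfcp2l1, which rose here, fell there (log2 fold change -1.01, adjusted p = 4.12e-04), and the interaction, the log2 fold change here minus that there, was 3.29 (adjusted p = 9.49e-07). For Klf4 the log2 fold change there was -0.54 and the interaction 2.81 (adjusted p = 2.64e-05). Dnmt3b had a log2 fold change of 0.10 there (adjusted p = 0.476), with an interaction of -2.07 (adjusted p = 3.56e-06), and Pou3f1 one of 0.06, with an interaction of -2.28 (adjusted p = 0.00106).

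The genes with opposite calls included Sema6a, which fell here and rose there (log2 fold change 3.17, interaction -5.77, adjusted p = 3.20e-08). Lrrc15, among the largest increases here, was counted at 13.9 to 18.2 CPM in Control under the label 48h and had a log2 fold change of -0.04 there (interaction 7.59, adjusted p = 3.89e-06). Upp1 fell under both labels (log2 fold change there -3.08, adjusted p = 2.02e-05), as did Tpi1 (-1.399, adjusted p = 1.79e-04). Cxcl12, Enpp2, Irs4 and Ndnf, among the largest decreases here, were counted at no more than 0.311 CPM in any Control library labelled 48h and did not pass the filter there.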

How the data were processed

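Total RNA from the libraries was sequenced, and the deposited tables give raw counts of reads per gene with Ensembl identifiers, 1 table per library. The authors trimmed reads with Trim Galore, aligned them with TopHat2 to GRCm38/mm10 and counted them with featureCounts. How reads that map to several places or overlap several genes were counted is not given in the sources used here. Gene names were taken from GENCODE vM21 for 48349 of the 48709 genes listed, and the spike-in RNAs (0.733% to 0.9996% of counts in the 8 libraries) were left out of library sizes.

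Counts were tested with edgeR 4.0.16 in R 4.3.3 (filterByExpr, TMM, quasi-likelihood F test, Benjamini-Hochberg adjustment over all genes tested), on the 8 libraries together, with no covariate. A gene was called at an adjusted p under 0.05 and more than 1 on the log2 scale. Each standard error given is the absolute log2 fold change divided by the square root of its F statistic. Lines were fitted as separate groups against the 4 Control libraries for the rule on both lines, and the interaction was fitted over all 16 libraries, with CPM from that fit where both labels are shown. The test was checked on simulated counts. DESeq2 1.42.0, other scalings, no filter, a replicate block, summed lines, single lines and leaving out each library were tried as alternatives.

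Genes were named by a rule: the Mta genes, the 12 largest changes in each direction as defined in the text, the key members and up to 4 called members of each list, and up to 3 of each gene family. It names 299 genes, of which 123 are described. Results for some genes are not reported here. The comparison, the members and the lists were chosen with earlier results of these data known, so they are not independent of them.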

Additional observations from a re-analysis of the deposited data

Results flagged for a closer look

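Differences between the 2 Mta123KO lines and between the culture labels were the most frequent. Of the 123 genes described, 47 had a difference between the lines (adjusted p under 0.05 and more than 1 on the log2 scale), and in 54 the genotype difference itself differed between the labels 2i+LIF and 48h by the same thresholds on the interaction term. The values below are log2 differences, line 1 minus line 2, and label 2i+LIF minus label 48h, and no cause was tested for them. Hoxb8, Pcdh8, Pcdh11x, Pcdhac2, Cxcl12, Enpp2, Irs4 and Ndnf did not pass the filter under the label 48h. Their interactions rest on few counts there.

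Among trophoblast and placental genes, the line difference was Cdx2 3.05, Elf5 1.69, Esx1 1.74, Gata3 1.59, Hand1 2.93, Ly6a 1.38, Rhox6 1.34 and Rhox9 1.48. For epithelial and junction genes line 1 minus line 2 came to Krt7 2.57, Krt8 2.43, Krt18 2.59, Krt19 1.98 and Perp 1.64. Between the labels their genotype difference differed by Krt18 -2.78, Cldn6 -2.12 and Sfn 3.27. Among Wnt, TGF-beta, BMP, FGF and retinoid genes, the line difference was Wnt4 2.65, Wnt7a 2.64, Wnt7b 1.31, Tgfb2 1.77, Tgfbr2 1.92, Id2 1.72, Fgf4 -1.54, Fgf5 -2.08 and Rarg -1.003. The interaction in this group was Wnt7b 2.84, Tgfb2 2.71 and Tgfbr2 2.43. For pluripotency genes line 1 minus line 2 came to Foxd3 -3.41, Lef1 -2.86, Pou3f1 -1.11, Sox2 -1.25 and Sox3 -1.44. Between the labels their genotype difference differed by Lef1 -2.93, Pou3f1 -2.28, Sox3 -2.32, Dnmt3b -2.07, Sall2 -1.50, Tdgf1 -1.83, Myc -2.27, Klf4 2.81, Tfcp2l1 3.29, Esrrb 1.69, Tbx3 3.17 and Gbx2 -2.03. Among lineage factors, germline and 2-cell-stage genes, the line difference was Gata4 1.71, Olig2 -1.43, Hoxb8 2.27, Myb -1.27, Wt1 -1.32, Tex101 1.19 and Zscan4c 2.66. The interaction in this group was Eomes 2.36, Gata6 -3.98, Sox7 2.63, Sox1 -1.50, Hoxb8 4.22, Hoxa10 -3.71, Myb -3.16 and Wt1 -3.73.

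For muscle, cardiac, channel and transport genes line 1 minus line 2 came to Tnnt3 2.46 and Hcn4 1.596. Between the labels their genotype difference differed by Hcn4 1.95 and Slc26a9 5.55. Among adhesion, guidance and matrix genes, the line difference was Col6a3 -1.45, Itgb2 1.18 and Epha7 -1.23. The interaction in this group was Itgb2 1.98, Sema6a -5.77, Pcdh8 -2.31, Pcdh11x -4.83 and Pcdhac2 -2.82. For imprinted genes and chromatin regulators line 1 minus line 2 came to H19 3.27, Igf2 2.90 and Phc1 -1.51. Between the labels their genotype difference differed by Meg3 -2.65, Dlk1 -2.67, Dnmt3l -3.42, Pwwp2b 1.15 and Smarca2 1.83. Among metabolic and stress genes, the line difference was Upp1 -1.43. The interaction in this group was Tpi1 -1.36, Pdk1 -2.36, Ldha -1.36, Mdm2 1.21, Phlda3 2.04 and Mt1 1.63. For other genes with large changes line 1 minus line 2 came to Arsi 2.55, Lrrc15 1.56, Cdk5r2 -1.05 and Vrtn -1.58. Between the labels their genotype difference differed by Lrrc15 7.59, Cdk5r2 -2.29, Vrtn -3.92, Cryge 1.93, Ptgs2 4.01, Cxcl12 -5.25, Enpp2 -7.03, Irs4 -4.85, Ndnf -4.63 and Fam19a4 -3.40.

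A cut-off was used that would mark about 1 in 20 groups of 4 independent values. Libraries of the same line are not independent, so the count here cannot be read against that rate. In 7 of 246 groups of 4 libraries 1 library stood apart from the other 3. In Control these were replicate 1_1 for Cryge (highest, 0.278 CPM), Lef1 (highest, 116 CPM) and Tet1 (lowest, 453 CPM), replicate 1_2 for Hand1 (highest, 0.811 CPM) and replicate 2_2 for Myb (lowest, 24.6 CPM). In Mta123KO replicate 2_1 was highest for Kcnn2 (0.665 CPM) and Pcdh8 (0.886 CPM).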

How the results depend on the processing

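The counts of called genes kept within 1.5 times their value under DESeq2 (2903 increased and 1656 decreased), size factors of DESeq2, spike-in scaling (2966 and 1562), no filter (3698 and 1986) and 1 fit of all 16 libraries. Summing the libraries of each line left 1878 and 956, since it leaves 2 samples a group. Without a threshold on fold change 5867 and 5248 passed, and line 1 alone gave 2424 decreased genes. Leaving out 1 library gave 2768 to 3102 increased and 1536 to 1837 decreased genes, and 2127 to 2332 and 1159 to 1275 in both lines. With the replicate number as a block, 2681 and 1561 genes were called (2020 and 1074 in both lines). The sources used here do not say that same-numbered libraries pair, so the block was not used for pairing. Deviations of same-numbered libraries correlated at -0.261 to 0.0304 over 11445 genes (4 pairs), and those of different numbers at -0.289 to 0.291 (12 pairs). These deviations include the difference between the Mta123KO lines, so the correlations cannot decide whether the numbers pair. The block is given as an alternative only. It changed the calls of 3 of the 123 genes, Cdx2, Gata4 and Gata6. Of the 123 genes, 123 kept direction and call under DESeq2 and 111 with lines summed, where Cdx2, Dlk1, Fgf4, Fgf5, Foxd3, Gata4, Gata6, Igf2, Krt18, Lef1, Otx2 and Phc1 lost theirs. Direction turned for Cdx2 (-0.15), Zfp42 (0.065) and Zscan4c (-1.53) in line 2 alone, for Sox2 (-0.51) and Nanog (0.034) in line 1 alone, for Nanog with spike-in scaling (0.0025), and for Zscan4c with the replicate block (-0.093). Leaving out 1 library gave log2 values of -0.16 to 0.092 for Nanog and -0.19 to 0.69 for Zscan4c. The cause of these changes was not tested. With 2 lines per genotype, no result here separates genotype from line of origin, and genes under 1 CPM in both groups are limited by depth.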

Other observations

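Other gene groups also had members that rose and members that fell. Of 13 blood and endothelium genes tested (of 20 listed) 6 rose, all in both lines, and 3, the haematopoietic factors Klf1, Lmo2 and Tal1, fell, 2 of them in both lines. Those that rose were the endothelial receptors Kdr and Tek and the cadherin Cdh5, the factors Gata1 and Spi1, and the globin Hbb-y. Of 13 gastrulation genes 4 rose, all in both lines (Eomes, Kdr, Wnt3 and Wnt3a), and 1 fell. Of 46 other lineage transcription factors 20 rose and 9 fell, 12 and 9 in both lines, and 20 of the 46 were higher in line 1 than in line 2. The Notch and Hedgehog pathways had members called in both directions, beside 13.2% increased and 7.43% decreased over all genes. Of 17 Notch genes 1 rose (5.88%) and 3, the ligands Dll1 and Dll3 and the receptor Notch4, fell (17.6%). In both lines these counts were 1 and 2, and the median log2 fold change was 0.20. Of 12 Hedgehog genes 1, Gli1, rose (8.33%) and 3, Boc, Gas1 and the receptor Ptch1, fell (25%). Here the counts in both lines were 0 and 1, with a median of 0.06. Of 14 targets of YAP, the effector of the Hippo pathway, 5 rose, all in both lines.

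Receptors and channels of excitable cells moved both ways. Of 55 neurotransmitter receptor genes tested 15 rose and 11 fell, 9 and 9 in both lines, and of 21 voltage-gated calcium channel genes 5 rose and 2 fell. Of 17 hypoxia targets 2 rose and 3 fell, and of 18 genes of the unfolded protein and integrated stress responses 1, Chac1, fell. Of 354 zinc finger genes 22 rose (6.21%) and 25 fell (7.06%), beside 13.2% and 7.43% of all genes. Of 83 nuclear genes of the respiratory chain 1 rose and 2 fell, and of 39 proteasome genes 2 rose, Psmb8 and Psmb9, which are the interferon-inducible subunits. Genes named in these 2 paragraphs were picked out after their values were seen.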
